A study of Mus musculus with 12 samples.

Results

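Gdf15 and Fgf21 are the members described here. They were taken as the rows of the count table whose gene symbol is Gdf15 or Fgf21, and each symbol matched 1 row, so that they make up 2 of 15113 genes. The measurements come from C2C12 cells, a mouse myoblast line that was grown in 10% fetal bovine serum, brought to confluence and fused into myotubes in 2% horse serum. Myotubes received 20 μM BAM15, a mitochondrial uncoupler that carries protons across the inner membrane, or only its solvent DMSO, for 16 h. From each condition 6 libraries were made by the 3′ method QuantSeq. C2C12 is 1 clonal line, the records give passages 2 to 5 for both conditions, and nothing states that the 6 libraries of a condition came from separate cultures, so that p-values measure the spread between libraries, which may be technical.

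A mitokine is a signal that a cell under mitochondrial stress releases to act on other tissues. GDF15, a distant member of the TGF-β superfamily, binds GFRAL on neurons of the hindbrain, which signals through the receptor tyrosine kinase RET and lowers food intake. FGF21, an endocrine fibroblast growth factor made mainly in liver, signals through FGF receptors, chiefly FGFR1, together with the co-receptor β-Klotho, and raises energy expenditure and the use of lipid. Both genes are known targets of the integrated stress response, in which kinases phosphorylate the translation factor eIF2α and the transcription factors ATF4 and CHOP (gene Ddit3) then accumulate. Skeletal muscle expresses little of either at rest and more in mitochondrial disease and in models of uncoupling.

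Both genes lie on the minus strand, Gdf15 at chr8:70629393-70632456 and Fgf21 at chr7:45613886-45615490 of GRCm38. The sequences around their start sites are shown because both members changed together with stress factors that are known to act at the motif TGATGNAA, the core of the C/EBP-ATF response element. RefSeq entries on GRCm38.p6 gave 2 start sites for Gdf15 and 1 for Fgf21, and each sequence runs 5′ to 3′ on the minus strand from 250 bases before the start to 50 bases after it. Capitals mark each match to 1 of 6 motifs searched on both strands, namely TGATGNAA, the cyclic AMP response element TGACGTCA, the antioxidant response element core TGACNNNGC, the nuclear receptor repeat DR1 (AGGTCA repeated after 1 base), the E-box CACGTG and the endoplasmic reticulum stress response element (ERSE).
Fgf21, chr7:45615441-45615740: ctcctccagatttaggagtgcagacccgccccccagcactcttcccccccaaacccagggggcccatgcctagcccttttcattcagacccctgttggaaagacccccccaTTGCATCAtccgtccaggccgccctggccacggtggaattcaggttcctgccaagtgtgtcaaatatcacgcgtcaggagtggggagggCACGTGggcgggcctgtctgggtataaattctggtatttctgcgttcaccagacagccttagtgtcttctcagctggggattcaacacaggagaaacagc
Gdf15 upstream start, chr8:70632407-70632706: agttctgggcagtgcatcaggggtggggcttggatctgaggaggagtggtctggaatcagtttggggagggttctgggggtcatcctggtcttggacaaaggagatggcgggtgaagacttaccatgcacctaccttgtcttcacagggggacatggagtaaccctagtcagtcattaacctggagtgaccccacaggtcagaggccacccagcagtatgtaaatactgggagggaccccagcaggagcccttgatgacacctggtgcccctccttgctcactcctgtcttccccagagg
Gdf15 downstream start, chr8:70632046-70632345: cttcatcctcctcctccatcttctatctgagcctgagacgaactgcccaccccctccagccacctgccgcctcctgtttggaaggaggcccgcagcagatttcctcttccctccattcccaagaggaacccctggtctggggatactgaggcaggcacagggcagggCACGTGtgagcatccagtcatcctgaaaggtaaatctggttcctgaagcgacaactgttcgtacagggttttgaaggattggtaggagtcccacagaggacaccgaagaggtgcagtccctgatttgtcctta
The Fgf21 sequence held the response element on the opposite strand, read as TTGCATCA, from 139 to 132 bases before the start, and an E-box that begins 50 bases before it. The upstream Gdf15 sequence held none of the 6 motifs. The downstream Gdf15 sequence held an E-box that begins 83 bases before its start. Of 32851 mouse start-site sequences of the same length, 3.97% held TGATGNAA, 7.15% CACGTG, 1.79% TGACGTCA, 12.4% TGACNNNGC, 0.0396% DR1 and 0.119% ERSE. A match is a description of these letters and says nothing of binding in these cells.

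For comparison, the starts of Chac1 and Atf3, which are among the stress genes described further on, are shown on GRCm38.p6, since both held the same 8 letters as Fgf21, TTGCATCA. Chac1 degrades glutathione and is on the plus strand, and Atf3 encodes a stress-induced transcription factor and is on the minus strand.
Chac1, chr2:119350992-119351291: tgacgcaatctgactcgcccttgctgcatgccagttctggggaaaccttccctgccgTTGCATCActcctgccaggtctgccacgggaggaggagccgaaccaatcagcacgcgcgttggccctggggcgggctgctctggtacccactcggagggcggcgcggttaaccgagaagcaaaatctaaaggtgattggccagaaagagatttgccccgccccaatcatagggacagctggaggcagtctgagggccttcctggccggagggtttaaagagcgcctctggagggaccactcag
Atf3, chr1:191183284-191183583: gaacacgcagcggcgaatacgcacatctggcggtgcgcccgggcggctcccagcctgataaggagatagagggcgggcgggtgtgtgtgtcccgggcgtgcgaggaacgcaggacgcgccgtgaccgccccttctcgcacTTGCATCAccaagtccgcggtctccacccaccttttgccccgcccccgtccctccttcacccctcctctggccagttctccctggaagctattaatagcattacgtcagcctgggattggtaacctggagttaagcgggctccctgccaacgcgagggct
In Chac1 the letters begin 193 bases before the start and in Atf3 110 bases before it. Slc7a11, which encodes a cystine transporter, also held TTGCATCA, beginning 47 bases before its start, and held the element on the other strand, TGATGCAA, beginning 66 bases before it. TGATGNAA was found at 1 or more starts of 6 of the 12 mitochondrial stress partners with a start-site entry (Asns, Chac1, Pck2, Pycr1, Slc7a11 and Vldlr) and of 3 of the 9 stress factors (Atf3, Nupr1 and Trib3). Counted by gene in the same way, 4.51% of all genes with an entry held it. The partner list is made of genes known to change with ATF4, and both lists were chosen with earlier results of these data known. The shares are therefore a description of the lists, and action of ATF4 at these starts was not tested.

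Between 13983725 and 18866728 reads per library were counted on genes. QuantSeq primes from the poly(A) tail, so that a count stands for reads at the 3′ end and does not scale with transcript length. Levels are therefore given as TMM-normalized counts, which are counts scaled for library size and composition. Of 12730 genes with enough counts to test, 42.3% had an adjusted p below 0.01 between BAM15 and vehicle in edgeR's quasi-likelihood test, adjusted by the Benjamini-Hochberg method (22.0% higher and 20.3% lower after BAM15), which is called passing the test here. The study's 3 thresholds, an adjusted p below 0.01, a mean above 50 normalized counts (base mean) and a difference beyond 2-fold, were met by 7.28% of tested genes (3.70% higher and 3.58% lower). The median log2 fold change of all tested genes was 0.02. All 10 myotube markers were detected, with a summed level of 438015 to 493026 normalized counts in vehicle and 405702 to 539057 in BAM15 libraries. The hepatocyte and adipocyte marker lists were not analysed here. Of 6 macrophage markers, 4 were counted, with a summed level of 21.3 to 38.2 in vehicle and 65.4 to 95.1 after BAM15; Ptprc and Adgre1 were not analysed here, only Cd68, which encodes a lysosomal membrane protein, had enough counts to test (log2 fold change 2.22, SE 0.18), and its part in the results was not tested. Fewer transcripts per cell and fewer cells cannot be told apart in such bulk samples.

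Gdf15 was 23.0-fold higher after BAM15. In the vehicle libraries numbered 1 to 6 its normalized counts were 135, 173, 142, 124, 138 and 146. In the BAM15 libraries they were 3616, 3765, 3892, 2960, 2677 and 2821. The lowest BAM15 library stood far above the highest vehicle library, and the 6 vehicle libraries lay close together. The means were 143 ± 16.5 (SD, n = 6) and 3288 ± 529 (SD, n = 6), a log2 fold change of 4.52 (SE 0.12, adjusted p = 3.3e-13 by edgeR's quasi-likelihood test). By level, Gdf15 rose from place 8455 to place 927 of the 12730 tested genes. It passed all 3 thresholds and was in place 20 of the 471 genes that passed them with higher counts. The study tested RNA changes in these same samples, so that the increase of Gdf15 here is not independent evidence. In mice fed BAM15 in a high-fat diet, the study reported lower plasma GDF15 and FGF21 than in control mice. That is circulating protein in animals, a measure unlike RNA in cultured myotubes, and the difference in direction was not examined here.

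Fgf21 was 15.9-fold higher after BAM15, from a much lower level and with a much wider spread. In the vehicle libraries 1 to 6 it had 9.69, 9.57, 4.78, 14.1, 5.15 and 19.9 normalized counts, which came from 5 to 22 reads. In the BAM15 libraries it had 82.5, 44.3, 59.2, 143, 505 and 187 normalized counts, from 41 to 538 reads. The groups did not overlap, and library 5 alone held 49.5% of the summed BAM15 level. The means were 10.5 ± 5.72 (SD, n = 6) and 170 ± 173 (SD, n = 6), with a log2 fold change of 3.99 (SE 0.69, adjusted p = 0.000346 by edgeR's quasi-likelihood test). Without BAM15 library 5 the mean after BAM15 was 103 ± 60.0 (SD), the log2 fold change 3.26 and the fold change 9.58. By level, Fgf21 went from place 12393 to place 8121. It passed all 3 thresholds, with a mean over the 12 libraries of 90.3 normalized counts, and was in place 25 of the 471 higher genes. With 5 to 22 reads in vehicle, Fgf21 had enough counts to test, and a mean above 50, only through its BAM15 libraries. Its direction was thus fixed in advance among the filtered genes, so that its adjusted p and its place are a description. Without the filter on low counts the log2 fold change was 3.99 (adjusted p = 0.000644 by edgeR's quasi-likelihood test).

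**Figure D1:**
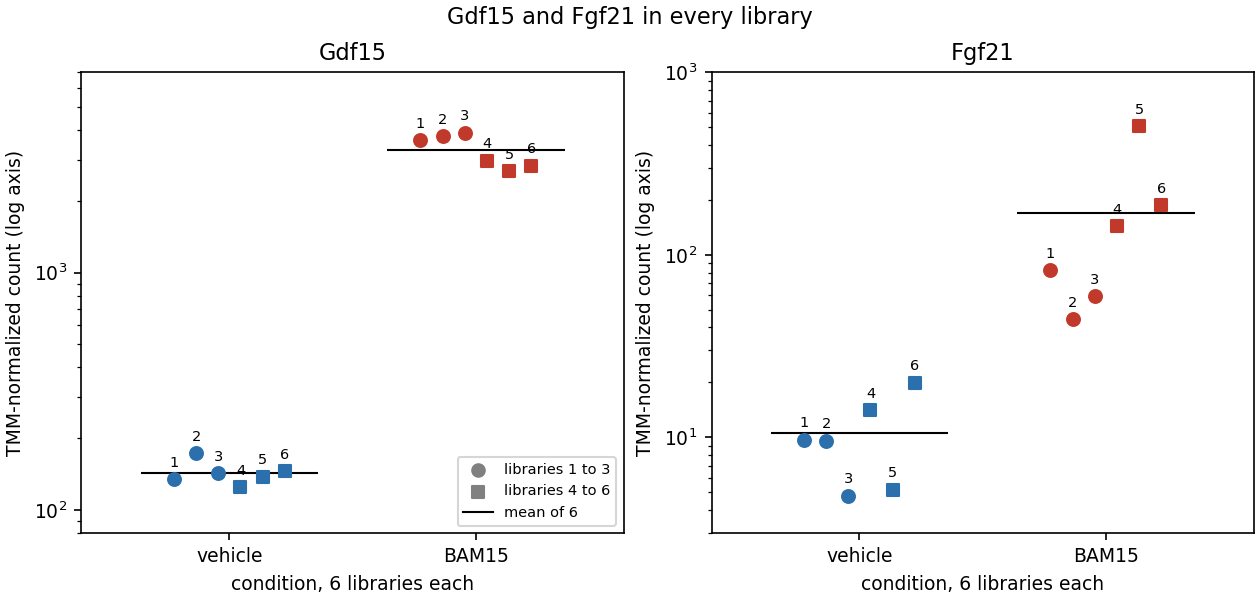
TMM-normalized counts (log axes that differ between the panels) of Gdf15 and Fgf21 in each of the 6 vehicle and 6 BAM15 libraries. Small numbers give the library number, circles mark libraries 1 to 3, squares 4 to 6, and lines the mean of 6. In both panels every BAM15 library is above every vehicle library. Among the BAM15 libraries, numbers 4 to 6 are lower than 1 to 3 for Gdf15 and higher for Fgf21.

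Both members were thus higher in 6 of 6 BAM15 libraries than in every vehicle library, as were 17.1% of tested genes. In the order of fold change, Gdf15 stood between Slc7a11, a cystine transporter (log2 fold change 4.58, SE 0.18), and Ddit3 (4.31, SE 0.13). Its gaps to Slc7a11 and to the next gene above, the calcium pump Atp2a3 (4.63, SE 0.20), were smaller than its SE. Ddit3 was 0.21 lower, and Cth, an enzyme of cysteine synthesis, was lower again (4.10, SE 0.25). Gaps between genes were not tested and the SE of such a gap was not computed, so that this order is a description. Fgf21 stood between Gm12022 (4.00, SE 0.21) and Rab39b (3.96, SE 0.22), with Aldh1l2 (4.06, SE 0.08) and Entpd2 (3.90, SE 0.19) as the next ones. Its SE spans places 18 to 34 of the 471 genes, and 16 other genes lie within 1 SE of it, against 2 for Gdf15. Aldh1l2, a mitochondrial folate enzyme, shares its annotated 3′ end with the opposite-strand gene D10Wsu102e, and the strand used for counting is not given in the sources used here, so that its value is uncertain. The last 400 bases of the Gdf15 and Fgf21 transcripts shared no window of 50 bases with another gene and overlapped no other exon.

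**Figure D2:**
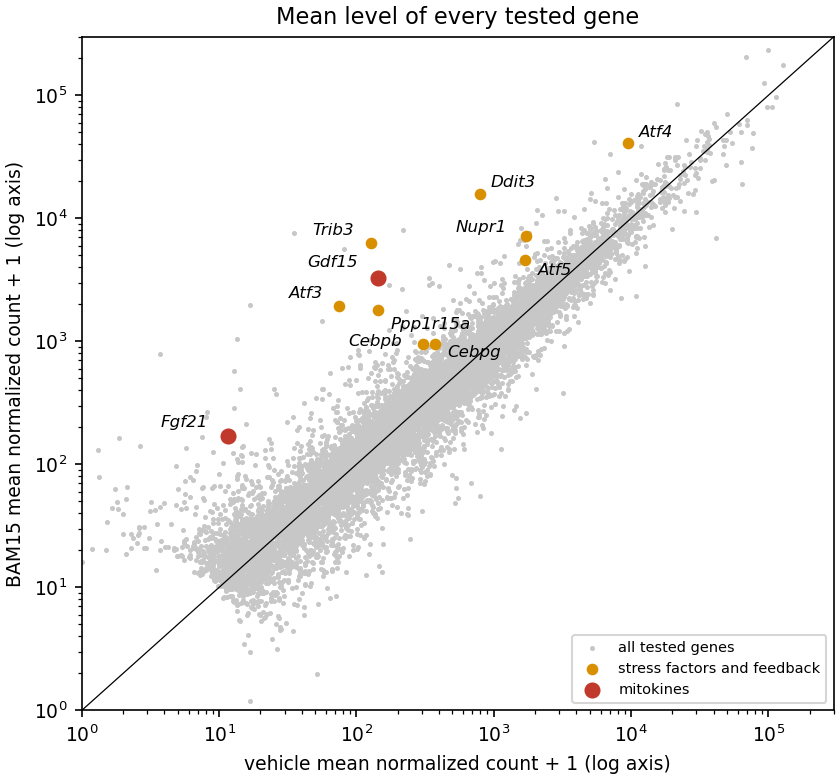
Mean TMM-normalized count + 1 of each of the 12730 tested genes in 6 BAM15 libraries (vertical, log axis) against 6 vehicle libraries (horizontal, log axis). The diagonal is equality. Fgf21 starts near the low end of the tested genes and Gdf15 below their middle, at 10.5 and 143 normalized counts in vehicle. Both sit above the diagonal, as do the 9 stress factors and feedback genes.

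The BAM15 libraries differed among themselves by number, and the labels name no batch. The split into libraries 1 to 3 and 4 to 6 was chosen because earlier results of these same data showed it. The p-values and the lack of overlap between these number groups are therefore a description and no independent test of the split. BAM15 libraries 4 to 6 were lower than 1 to 3 in Gdf15, with a mean of 2819 against 3758 normalized counts and no overlap, a log2 difference of -0.41 (SE 0.07, adjusted p = 0.000508 by edgeR's quasi-likelihood test). They were higher in Fgf21, with a mean of 278 against 62.0 and no overlap, a log2 difference of 2.17 (SE 0.49, adjusted p = 0.00653). In this contrast 13.5% of tested genes passed the test upward and 10.7% downward, and 22.2% and 27.7% did not overlap. Of the 10 myotube markers, 6 also passed as lower in BAM15 libraries 4 to 6, by a log2 difference of -0.65 in Des, which encodes the muscle filament protein desmin, to -0.22 in Mylpf, a myosin light chain gene, and 4 did not pass. Their part in the Gdf15 and Fgf21 differences was not tested. The Fgf21 difference was 1.40 without library 5, and its adjusted p rose to 0.0137 without library 1, 0.0335 without library 2 and 0.0245 without library 3. Among vehicle libraries, the log2 difference of 4 to 6 minus 1 to 3 was -0.13 for Gdf15 (SE 0.11, adjusted p = 0.864 by edgeR's quasi-likelihood test). For Fgf21 it was 0.72 (SE 0.99, adjusted p = 0.906). Both signs were those seen among BAM15 libraries, and the SE of Fgf21 was larger than its difference. In that contrast edgeR called 0 genes, with 696 of the tested genes at an unadjusted p below 0.05.

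Against vehicle libraries of the same numbers, Gdf15 was 25.1-fold higher in libraries 1 to 3 and 20.6-fold higher in 4 to 6, with log2 fold changes of 4.65 and 4.37. All 3 thresholds were met in these comparisons by 7.78% of tested genes for numbers 1 to 3 and by 8.39% for 4 to 6, in either direction, and by both members. Fgf21 was 7.68-fold higher in libraries 1 to 3 (log2 fold change 2.94, adjusted p = 0.00863 by edgeR's quasi-likelihood test) and 20.9-fold higher in 4 to 6 (4.39). The difference of the BAM15 effect between the number groups did not pass the test. On the log2 scale it was -0.28 (SE 0.13, adjusted p = 0.178) for Gdf15 and 1.45 (SE 1.16, adjusted p = 0.464) for Fgf21.

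Counted in reads, Gdf15 outnumbered Fgf21 in every library, though by a ratio that varied widely. There were 13.9, 18.1, 29.8, 8.85, 26.8 and 7.32 Gdf15 reads per Fgf21 read in vehicle libraries 1 to 6. In BAM15 libraries 1 to 3 there were 43.8, 85.0 and 65.7, and in libraries 4 to 6 there were 20.7, 5.30 and 15.1. BAM15 libraries 1 to 3 were above every vehicle library, and libraries 4 to 6 fell within or below the vehicle range. On the log2 scale, with 0.5 added to each count, the ratio was 4.76 ± 1.49 (SD, n = 6) after BAM15 and 3.86 ± 0.78 (SD, n = 6) in vehicle. The difference of 0.90 did not pass a two-sided exact permutation test (p = 0.225, smallest possible 0.00216), and without BAM15 library 5 it was 1.37 (exact permutation p = 0.0476). Within libraries 1 to 3 the difference was 1.75 (exact permutation p = 0.1, the smallest that 3 against 3 allows), and within 4 to 6 it was 0.04 (exact permutation p = 1).

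**Figure D3:**
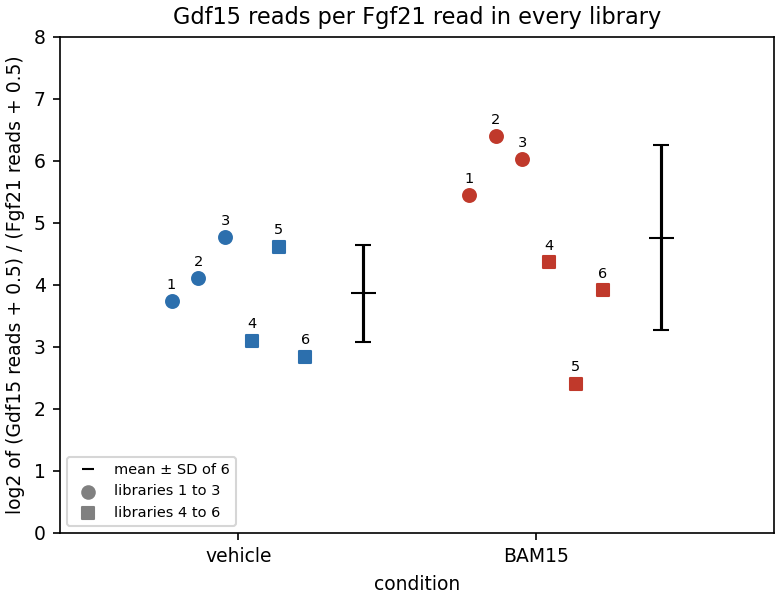
Log2 ratio of Gdf15 to Fgf21 reads, with 0.5 added to each, in every library, with the mean ± SD of 6 beside each group. BAM15 libraries 1 to 3 (circles) lie between 5.45 and 6.39 and libraries 4 to 6 (squares) between 2.40 and 4.36, while vehicle libraries span 2.84 to 4.76.

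Across the 6 vehicle libraries the log2 CPM (library-size-scaled counts) of Gdf15 and Fgf21 gave Pearson's r = -0.06 (exact permutation p = 0.922) and Spearman's rho = -0.14 (exact permutation p = 0.803). Without vehicle libraries 2 and 4, farthest from the median of Gdf15, r was 0.40 over 4 libraries. It was the only correlation between the members that was tested, and its p-values are unadjusted. No correlation is given for the BAM15 libraries, which fall into 2 clusters of 3 by number.

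The genes whose deviations from the condition means were most like those of Gdf15 over the 12 libraries were Vamp8 (Pearson's r = 0.95), Mrps25 (0.94), Eif4e3 (0.93), Psme1 (0.93) and Selenoo (0.93). Those most like Fgf21 were Mcfd2 (0.98), Hibadh (0.97), Pdcd6ip (0.97), Klf10 (0.97) and Vps26a (0.97). The 5 genes of the Gdf15 group were lower in BAM15 libraries 4 to 6 than in 1 to 3, by 0.24 to 0.35 on the log2 scale. The 5 of the Fgf21 group were higher there, by 0.50 to 1.44. Except Selenoo (log2 fold change 0.61), Mcfd2 (0.72) and Mrps25 (-0.45), these 10 genes did not pass the test between BAM15 and vehicle. The libraries, their depth and the split by number are shared by all of these genes, and the correlations are a description over 12 libraries.

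Next to Gdf15 on the chromosome, Lrrc25 was not analysed here, and Pgpep1, a peptidase gene 13978 bases away on the same strand, had 606 ± 21.8 normalized counts in vehicle and 555 ± 37.5 after BAM15 (SD, n = 6 each; log2 fold change -0.13, adjusted p = 0.0853 by edgeR's quasi-likelihood test). Next to Fgf21, Gm31479 was not analysed here. Fut1, a fucosyltransferase gene on the opposite strand whose start is 1798 bases from that of Fgf21, rose from 9.68 ± 2.79 to 45.7 ± 4.88 normalized counts (SD, n = 6 each; log2 fold change 2.23, SE 0.19, adjusted p = 1.09e-07 by the same test). Fut1 had 5.73 to 13.8 normalized counts in vehicle and 40.9 to 52.4 in BAM15 libraries, without overlap. The same held for 17.1% of all tested genes. With 6 to 13 reads in vehicle, Fut1 had enough counts to test only through its BAM15 libraries. Its direction was thus fixed in advance. In BAM15 libraries 4 to 6 its mean was 43.0, against 48.4 in 1 to 3, a log2 difference of -0.17 (SE 0.23, adjusted p = 0.583) that did not pass the test, whereas the Fgf21 difference between these libraries was positive and did.

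Gfral, the receptor of GDF15, was counted only after BAM15. All 6 vehicle libraries had 0 reads, and the BAM15 libraries 1 to 6 had 12, 10, 13, 17, 14 and 21. Taking 3 reads per library as the limit of what a count of 0 allows, the mean of 15.1 ± 5.30 normalized counts (SD, n = 6) was at least 5.03-fold higher than vehicle. Gfral had enough counts to test only through its BAM15 libraries. Its direction was thus fixed in advance, and no p-value is given. The mean of 7.54 over the 12 libraries is below the threshold of 50. PCR copies are not separate molecules, and the limit takes in counting error alone. Ret, the kinase with which GFRAL signals, had 7 to 16 reads in vehicle and 7 to 12 after BAM15 (log2 fold change -0.05, SE 0.26, adjusted p = 0.897); its sign turned when BAM15 library 4, BAM15 library 5 or vehicle library 6 was left out.

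The receptors that FGF21 could use changed in both directions and none met all 3 thresholds, which 7.28% of all tested genes met. Of 7 genes on the list, 4 had enough counts to test, Fgfr2 had at most 18 reads in a library, and the co-receptor gene Klb and its relative Kl were not analysed here. Fgfr1, the main partner of β-Klotho, had 1001 to 1301 normalized counts in vehicle (median 1124) and 980 to 2025 after BAM15 (median 1318). The ranges overlapped and the log2 fold change of 0.29 (SE 0.17) did not pass the test (adjusted p = 0.163 by edgeR's quasi-likelihood test). Fgfr1 was higher in BAM15 libraries 4 to 6 than in 1 to 3, with 1780 against 1049 (log2 difference 0.76, SE 0.10, adjusted p = 0.000105), the same direction as Fgf21. Fgfr4, a receptor that in liver responds to bile-acid-induced FGF signals, fell from a median of 52.1 (35.4 to 61.7) to 17.2 (11.9 to 24.6), a log2 fold change of -1.51 (SE 0.20, adjusted p = 1.38e-05). Fgfr3 rose from a median of 94.3 to 146 (0.62, SE 0.10), and Fgfrl1, which lacks the kinase domain, fell from 4203 to 2895 (-0.53, SE 0.05). Neither Fgfr3 nor Fgfrl1 overlapped between the conditions, as was so for 34.2% of all tested genes in either direction.

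Upstream of the mitokines, all 9 genes of the stress factor and feedback list rose and met all 3 thresholds, with a median log2 fold change of 2.10 against 0.02 over all tested genes. These thresholds were met with higher counts by 3.70% of all tested genes. Atf4, the central factor of the integrated stress response, rose from a median of 9902 normalized counts (8657 to 10203) to 41919 (31843 to 48368), a log2 fold change of 2.10 (SE 0.10). Ddit3, which encodes CHOP, rose from 808 (687 to 883) to 16402 (12219 to 19011), a log2 fold change of 4.31 (SE 0.13). Its annotated 3′ end overlaps 68 bases of the opposite-strand gene Mars, so that its count carries some uncertainty. The largest change of the list was in Trib3, a pseudokinase that restrains ATF4, from 122 (107 to 156) to 6379 (5410 to 6851), a log2 fold change of 5.65 (SE 0.11). Atf3 rose from 80.5 (46.5 to 85.4) to 1943 (1826 to 2013), a log2 fold change of 4.71 (SE 0.12). Ppp1r15a, whose product GADD34 reverses eIF2α phosphorylation, rose from 147 (114 to 172) to 1647 (1191 to 2921), a log2 fold change of 3.64 (SE 0.23). The others were the stress-induced regulator Nupr1 (2.07, SE 0.06), the bZIP partners Cebpb (1.65, SE 0.08) and Cebpg (1.35, SE 0.09), and Atf5, a factor of the mitochondrial unfolded protein response (1.44, SE 0.10). None of the 9 overlapped between the conditions, and 17.1% of all tested genes were likewise higher without overlap.

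The kinases that phosphorylate eIF2α and the relay from the mitochondrion to them differed by less than 2-fold at the level of RNA. Of 6 genes, Eif2ak3, which encodes the endoplasmic reticulum kinase PERK, rose (log2 fold change 0.51, SE 0.14, adjusted p = 0.00593 by edgeR's quasi-likelihood test). That call was lost when any 1 of BAM15 libraries 1 to 4 or of vehicle libraries 1, 4, 5 or 6 was left out (adjusted p = 0.0108 to 0.0165). Eif2ak2, which encodes the RNA-activated kinase PKR, fell (-0.47, SE 0.11, adjusted p = 0.00163). The heme-regulated kinase gene Eif2ak1 (-0.19, adjusted p = 0.0205), the amino-acid sensor gene Eif2ak4 (0.02, adjusted p = 0.918), the mitochondrial protease gene Oma1 (-0.06, adjusted p = 0.484) and its substrate gene Dele1 (0.28, adjusted p = 0.0365) did not pass. Among all tested genes 42.3% passed the test, 22.0% as higher and 20.3% as lower. Eif2ak1 passed as lower in 4 of 22 alternatives. These were the DESeq2 Wald test (adjusted p = 0.00666), scaling by library size only (0.00114), a block for numbers 1 to 3 and 4 to 6 (0.00952) and leaving out BAM15 library 2 (0.00433). The sign of Eif2ak4 turned with upper quartile scaling, with scaling by library size only and when any 1 of BAM15 libraries 1, 3 and 5 or vehicle libraries 1 and 3 was left out. These are RNA levels and do not measure the activity of the kinases or of OMA1.

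**Figure D4:**
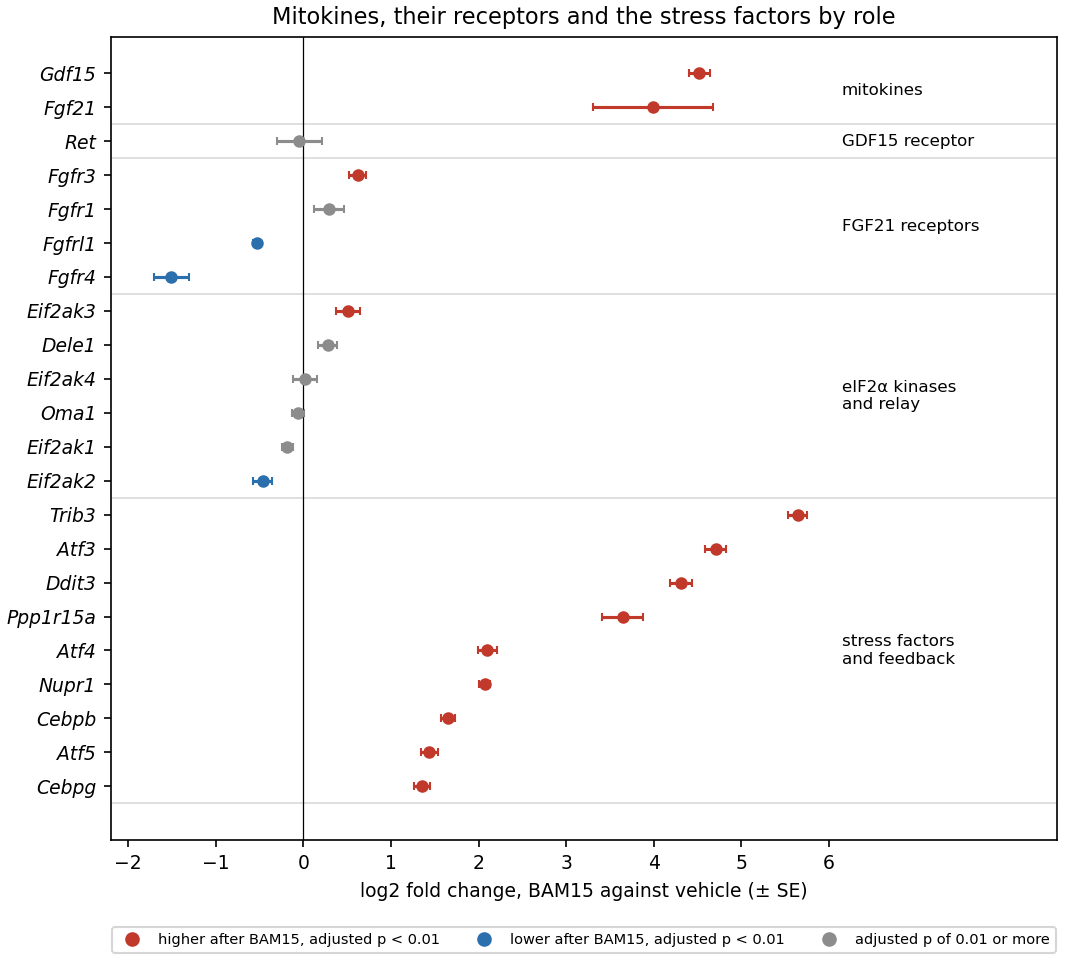
Log2 fold change of BAM15 against vehicle (horizontal, ± SE, 6 libraries per condition) of the members and the genes around them, by role. Red and blue points passed the test at an adjusted p below 0.01 (higher and lower), grey ones did not. Gfral is not drawn because it had 0 reads in vehicle. The 9 stress factors lie between 1.35 and 5.65, whereas receptors, kinases and relay lie between -1.51 and 0.62.

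All 14 genes of a list of mitochondrial stress partners rose, and 12 met all 3 thresholds, with a median log2 fold change of 2.70 against 0.02 over all tested genes. Among all tested genes 22.0% passed as higher and 3.70% met all 3 thresholds as higher. The list holds enzymes and transporters of amino acid and one-carbon metabolism and regulators known to change with ATF4. Its lowest adjusted p-values by edgeR's quasi-likelihood test were those of Chac1 (log2 fold change 3.63, SE 0.06), Aldh1l2 (4.06), the asparagine synthetase gene Asns (2.33, SE 0.06), the lipoprotein receptor gene Vldlr (3.06, SE 0.08) and the mitochondrial PEP carboxykinase gene Pck2 (3.10, SE 0.09). In Pck2, 21.4% of the 50-base windows near the 3′ end also occur in other genes. The members that did not reach 2-fold were Psat1, an enzyme of serine synthesis (0.91), and the mTORC1 inhibitor gene Ddit4 (0.65).

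Between the BAM15 number groups the stress genes went both ways. In that contrast 13.5% of all tested genes passed as higher in 4 to 6 and 10.7% as lower. Atf4 (log2 difference of 4 to 6 minus 1 to 3 of -0.43, SE 0.07), Ddit3 (-0.47, SE 0.08) and Atf5 (-0.44, SE 0.07) were lower in libraries 4 to 6, as Gdf15 was. Ppp1r15a was higher there (0.83, SE 0.16), as Fgf21 was, and the other 5 stress factors did not pass the test. Of the 14 stress partners, Phgdh (0.93, SE 0.15) and Slc7a11 (0.52, SE 0.12) were higher, Sesn2 was lower (-0.54, SE 0.11) and 11 did not pass. No interaction of condition and number group reached an adjusted p below 0.01 for any tested gene by edgeR's quasi-likelihood test, with 3313 of the 12730 at an unadjusted p below 0.05.

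**Figure D5:**
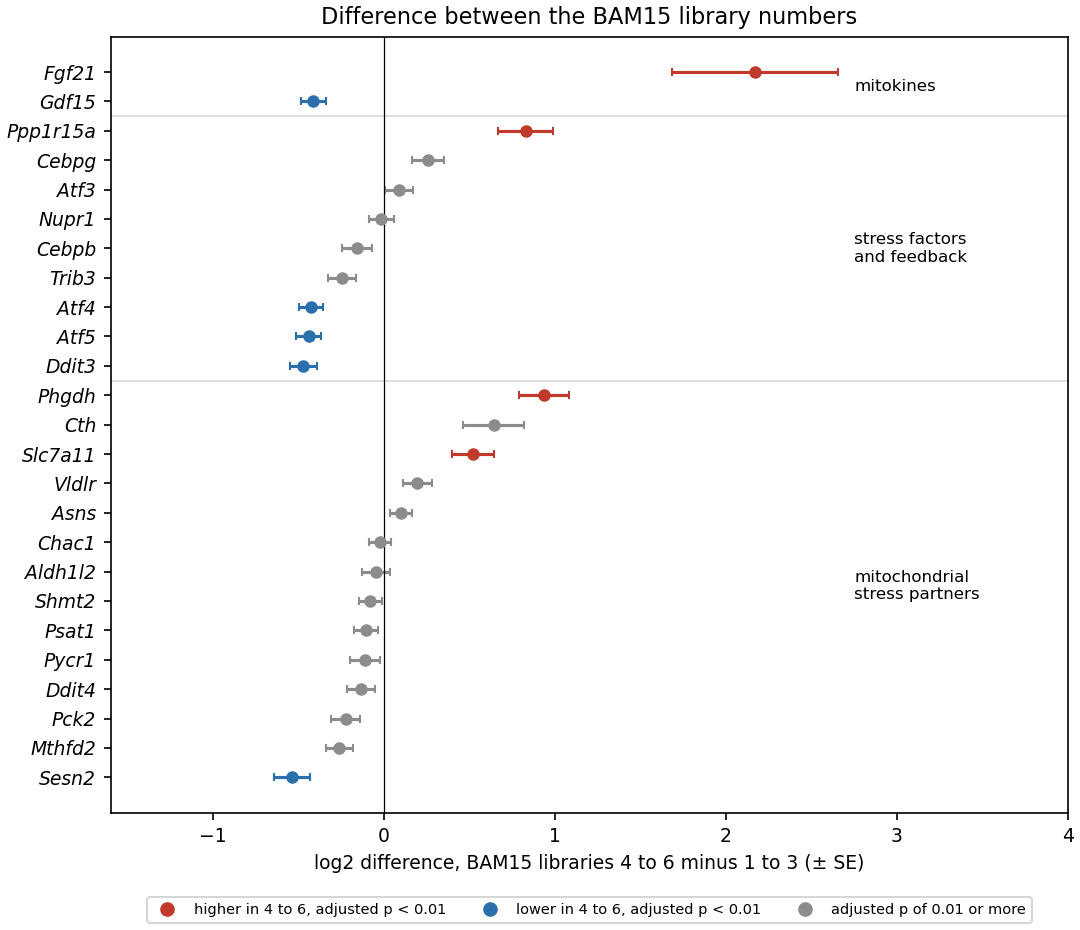
Log2 difference between BAM15 libraries 4 to 6 and 1 to 3 (horizontal, ± SE, 3 libraries per side) of the members, the stress factors with their feedback genes and the mitochondrial stress partners. Coloured points passed the test at an adjusted p below 0.01. Fgf21 has a difference of 2.17 and Gdf15 one of -0.41, and the stress genes lie between -0.54 and 0.93.

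Other transcriptional regulators that have been tied to either gene changed less uniformly. Of 20 on the list, 17 had enough counts to test, and 10 rose, 2 fell and 5 did not pass. Among all tested genes 22.0% passed as higher and 20.3% as lower. Those past all 3 thresholds were Nr1d1, a clock repressor (log2 fold change 2.31, SE 0.08), its opponent Rora (1.31, SE 0.10) and the myogenic factor Myod1 (-1.03, SE 0.07). Nr1d1 shares 175 bases of its annotated 3′ end with the opposite-strand gene Thra, so that reads of the pair may not have been told apart. Egr1 fell as well (-0.81, SE 0.10). Pparg had the largest change of the tested list genes (2.68, SE 0.44, adjusted p = 0.00015 by edgeR's quasi-likelihood test). Its mean rose from 12.7 to 82.3 normalized counts without overlap. Its base mean of 47.5 fell short of that threshold, and vehicle libraries held only 3 to 20 reads. In BAM15 libraries 4 to 6 its mean was 113, against 51.8 in 1 to 3. That log2 difference of 1.14 (SE 0.43, adjusted p = 0.053) did not pass the test. Ppara, the main fasting regulator of Fgf21 in liver, had at most 21 reads in a library and was not tested.

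Most of the other tested ligands of both families fell. Of 21 other FGF genes, 7 had enough counts to test, of which 2 rose, 4 fell and 1 did not pass. Their median log2 fold change was -0.42, and 22.0% of all tested genes passed as higher and 20.3% as lower. Fgf10 rose from 4.69 ± 1.74 to 43.1 ± 10.6 normalized counts (SD, n = 6 each; 3.16, SE 0.26) and, with a mean of 23.9 over the 12 libraries, is below the threshold of 50. With 2 to 7 reads in vehicle, Fgf10 had enough counts to test only through its BAM15 libraries. Its direction was thus fixed in advance. Fgf9 rose from 43.8 ± 5.30 to 98.2 ± 30.8 (1.17, SE 0.19) and met all 3 thresholds. The genes that fell were Fgf2 (-0.96), Fgf5 (-0.75), Fgf13 (-0.67) and Fgf11 (-0.42), and Fgf7 did not pass (0.76, adjusted p = 0.0538 by edgeR's quasi-likelihood test).

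Of 32 other genes of TGF-β superfamily ligands, 11 could be tested, with a median log2 fold change of -0.75. Only Inha, the inhibin alpha subunit gene, rose (0.62, SE 0.18), 7 fell and 3 did not pass. Among all tested genes 22.0% passed as higher and 20.3% as lower. Inhbb, the activin βB subunit gene, fell from 1130 ± 58.7 to 377 ± 46.7 normalized counts (SD, n = 6 each; -1.58, SE 0.08). Gdf5 fell from 275 ± 30.7 to 116 ± 21.9 (-1.24, SE 0.12), and the bone morphogenetic protein genes Bmp4 (-1.26, SE 0.16) and Bmp8a (-1.04, SE 0.14) fell by more than 2-fold too. In Bmp4, 14.2% of such windows also occur in other genes. Mstn, which encodes myostatin, was not analysed here.

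Proteases that cut the precursors, ligands or receptors showed small changes. Of 8 genes 4 were tested, of which Pcsk6, a proprotein convertase gene, rose (0.86, SE 0.12) and Mmp14, a membrane metalloprotease gene, fell (-0.86, SE 0.11). Among all tested genes 22.0% passed as higher and 20.3% as lower. Furin (-0.29, adjusted p = 0.0172 by edgeR's quasi-likelihood test) and Pcsk7 (0.07, adjusted p = 0.893) did not pass. Fap, which encodes a protease known to inactivate FGF21, had at most 18 reads in a library.

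Genes that act downstream of FGF receptors through ERK went both ways. Of 13 tested genes, 3 rose, 3 fell and 7 did not pass, shares near the 22.0% higher and 20.3% lower of all tested genes, with a median log2 fold change of 0.15. Fos (1.72, SE 0.15), the phosphatase gene Dusp4 (1.10, SE 0.10) and Etv5 (1.33, SE 0.13) rose by more than 2-fold, and Egr1 (-0.81), Spred1 (-0.29) and Etv4 (-0.43) fell. Dusp6 did not pass (-0.13, SE 0.40), although its BAM15 libraries 4 to 6 were above 1 to 3 (log2 difference 1.79, SE 0.27, adjusted p = 0.000838).

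Among 24 other secreted muscle factors, 18 could be tested, of which 7 rose, 8 fell and 3 did not pass. Their median log2 fold change was -0.03, and 22.0% of all tested genes passed as higher and 20.3% as lower. The chemokine gene Cxcl5 rose from 7.16 ± 2.51 to 264 ± 55.0 normalized counts (SD, n = 6 each; 5.17, SE 0.21), a larger fold change than those of the mitokines. With 4 to 10 reads in vehicle, Cxcl5 had enough counts to test only through its BAM15 libraries. Its direction was thus fixed in advance, and other genes of this list with few reads in 1 condition share that limit. The angiogenic factor gene Vegfa rose (1.69, SE 0.10). The growth factor gene Igf1 fell from 153 ± 5.46 to 12.4 ± 3.06 (-3.61, SE 0.14), and the activin-binding follistatin gene Fst (-1.17, SE 0.25) and its relative Fstl1 (-1.37, SE 0.08) fell as well. Fst, like Fgf21, was highest in BAM15 library 5, with 1408 normalized counts against 697 in the next.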

How the data were processed

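RNA of C2C12 myotubes was measured in 6 libraries after BAM15 and 6 after vehicle, grouped by their labels. The authors prepared QuantSeq 3′ libraries and deposited, as whole numbers, the counts of reads per Ensembl gene made with BlueBee software. A second deposited table of normalized signal holds, as its values show, those counts divided by 1 size factor per library; only its gene symbols were used. The submitters' processing notes name GRCm38, mm10 and DESeq2 1.22.2, whereas the aligner, the annotation and the strand used for counting are not given in the sources used here. The tables also hold 11 columns of other samples, which were not used.

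Counts were analysed in R 4.3.3 with edgeR 4.0.16: filterByExpr removed 2383 genes, TMM factors were 0.932 to 1.04, and a robust quasi-likelihood fit had condition as its only term, with Benjamini-Hochberg adjustment over 12730 genes. SEs are the absolute log2 change over the root of F. Number groups were compared in a fit with 4 cell means. A gene with at most 3 counts in all libraries of a condition was taken as not detected there. No pair of libraries within a condition agreed within sampling noise (chi-square per gene of at least 4.72). The scripts were tested on simulated data.

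Named genes are both members, every tested gene of the receptor, stress factor and kinase lists, up to 5 genes by adjusted p of each other list past all 3 thresholds, genes that a small count needs, the 5 genes most alike over libraries, and the genes next to each member on the chromosome and in the order of fold change. Some genes outside this rule (Dusp6, Ppara, Pparg, Mstn, Fap, Psat1, Ddit4, and Phgdh, Slc7a11 and Sesn2 by number group) were named after their values were seen. The members and lists were chosen with earlier results of these data known. Alternatives were DESeq2 1.42.0, limma-voom (limma 3.58.1), other scalings, filters, thresholds and pseudocounts, blocks for library number and number group, no robust moderation, and each library left out. Positions are from GENCODE M21, and motifs were searched in RefSeq start-site sequences of 300 bases. Figures were drawn with matplotlib 3.10.9 in Python 3.11.15.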

Additional observations from a re-analysis of the deposited data

Results flagged for a closer look

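Of 90 groups of 6 libraries examined (the members, their ratio and the named genes in each condition), 4 held a library whose gap to its nearest neighbour exceeded Dixon's 95% limit for 6 values, as a share of the group's range. Chance alone gives about 1 in 20, or 4.5 of 90. Fgf21 in BAM15 library 5 had 505 normalized counts against 187 in the next library, and on the log2 scale its gap was 0.409 of the range, within the limit. Fst was also highest in BAM15 library 5, at 1408. Oma1 was lowest in vehicle library 4, at 219.8 normalized counts against 252, and Asns was lowest in vehicle library 6, at 733 against 804. Over all 12730 tested genes, BAM15 library 5 stood apart as the highest of its group in 149 genes, and the other 5 BAM15 libraries in 28 to 46.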

How the results depend on the processing

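The direction and the call of the Gdf15 and Fgf21 increases did not change in any of the alternatives that gave a value (24 for Gdf15, 23 for Fgf21). Log2 fold changes were 4.37 to 4.65 and 2.94 to 4.39. Requiring at least 10 counts in every library removes Fgf21, so that it gives no value there. Where counts were filtered, Fgf21 had enough counts to test only through its BAM15 libraries. Its direction was thus fixed in advance in those alternatives. Leaving out 1 library gave 4.47 to 4.58 for Gdf15 and 3.26 to 4.29 for Fgf21, and the largest adjusted p of any alternative for Fgf21 was 0.00863. When the log2 fold change had to exceed 2, 189 genes passed in place of 927, and without the base mean threshold 1457 did; leaving out 1 library gave 922 to 955. The ratio of Gdf15 to Fgf21 differed by 0.57 to 1.37 with 1 library left out, the last without BAM15 library 5 (p = 0.0476 by exact permutation). The Fgf21 difference between BAM15 number groups was 2.01 by limma-voom (adjusted p = 0.0217), and 1.40 to 2.48 with 1 library left out; that of Gdf15 was -0.45 to -0.38. The split by number and the alternatives for these number-group differences were chosen after seeing the data. The causes were not tested. Signs turned for Eif2ak4 with upper quartile scaling (-0.0019) and library size only (-0.040) and with 1 library left out (-0.054 to 0.097), and for Ret with 1 library left out (-0.15 to 0.083). The replicate block gave 4.51 for Gdf15, 3.72 for Fgf21 (adjusted p = 0.000206 by edgeR), 933 genes and p = 0.188 for the ratio (exact sign-flip permutation), and changed no call of the members. Same-numbered libraries deviated together with correlations of -0.094 to 0.525, and 2 of 6 correlated best with their own number, so that the numbers were not taken to pair the samples. Depth limits Fgf21 in vehicle, which rests on 5 to 22 reads, and Gfral, Ret and Fgfr4.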
